A study of Mus musculus with 21 samples.

Results

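The 38 genes described here are neuronal and synaptic genes, chosen by symbol as a fixed list of 38 among the 55416 gene IDs of the count table. They fall by role into 6 groups, namely excitatory neuron genes (8), inhibitory neuron genes and neuropeptides (8), transmitter release genes (5), postsynaptic receptors and scaffold (7), the neuronal cytoskeleton (6), and nuclear, surface and channel genes (4). All 38 were found once each and all 38 passed the filter on low counts. The study sequenced RNA from mouse brains in which Pdcd10, the gene also called CCM3 and mutated in familial cerebral cavernous malformation, had been deleted, and set them against littermates without the deletion, with and without hypoxia.

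KO and Flox mice both carried Pdcd10fl/fl together with the Aldh1l1-EGFP/Rpl10a transgene, which tags ribosomes in astrocytes, and KO mice carried Slco1c1-iCreERT2 in addition. The Slco1c1 promoter drives the tamoxifen-regulated Cre in brain endothelial cells, so neurons and astrocytes were not the intended cells of the deletion. A dose of 50 µg of 4-hydroxytamoxifen was given on postnatal day 1. The labels do not say which controls were injected, and they also count Cre carriers without injection as controls. Brains were taken on postnatal day 57. Hypoxia was 12% oxygen for 7 days and normoxia was 21% oxygen. Counts were analysed for 4 KO normoxia, 4 Flox normoxia, 7 KO hypoxia and 4 of 6 Flox hypoxia libraries (replicates 3 to 6); replicates 1 and 2 of the Flox hypoxia group were not analysed here. The design text names affinity purification of astrocyte ribosomes, whereas the extraction text names homogenised brain, so how far other cells contributed to the RNA is not given by the labels. Separate animals per replicate are not stated by the labels, so the p-values speak to the spread among libraries, which may be technical.

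Neurons signal by releasing transmitter from synaptic vesicles onto receptors that a scaffold holds on the receiving cell. Excitatory neurons of the forebrain load glutamate into vesicles and inhibitory neurons load GABA, and many interneurons also make a neuropeptide. Axons and dendrites are held up by tubulin, neurofilaments and microtubule-associated proteins. In RNA enriched from astrocytes, neuronal transcripts are those of another cell type, and in a bulk sample fewer cells of a type and less RNA per cell cannot be told apart.

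RefSeq promoter windows, from 250 bases before to 50 bases after a gene's start (assembly GRCm38.p6), were matched by symbol for 27 of the 38 genes, as 37 windows. They were searched on both strands for TGACGTCA, the palindromic cAMP response element, and for TTCAGCACC, the left part of the RE1 element that the repressor REST binds. Sst and Syn1 were the matched members that held TGACGTCA, and Syn1 was the matched member that held TTCAGCACC. Of all 32851 windows, 1.79% held the first and 0.371% the second. The 250 bases before the start of each are shown because Syn1 passed the test in both oxygen conditions and Sst in hypoxia; capitals mark the motifs, both on the gene's own strand. In Sst (chr16:23890845-23891094, minus strand) TGACGTCA begins 48 bases before the start. In Syn1 (chrX:20920919-20921168, minus strand) TGACGTCA begins 159 and TTCAGCACC 232 bases before the start. A match is a description of the letters in the window.
Sst: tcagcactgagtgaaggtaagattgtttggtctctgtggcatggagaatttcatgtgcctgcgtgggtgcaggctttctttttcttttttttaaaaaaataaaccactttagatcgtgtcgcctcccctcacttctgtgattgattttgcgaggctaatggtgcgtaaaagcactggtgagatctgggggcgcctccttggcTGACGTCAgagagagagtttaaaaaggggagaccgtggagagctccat
Syn1: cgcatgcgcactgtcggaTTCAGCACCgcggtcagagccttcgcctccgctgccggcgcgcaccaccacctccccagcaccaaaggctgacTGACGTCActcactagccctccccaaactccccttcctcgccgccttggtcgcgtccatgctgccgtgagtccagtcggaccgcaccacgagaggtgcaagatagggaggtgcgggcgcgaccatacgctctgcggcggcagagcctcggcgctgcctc

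Libraries held 45399320 to 65261791 counts. Levels are given as CPM, counts scaled to the effective library size. Pdcd10 averaged 8.81 ± 1.17 CPM in KO normoxia, against 21.9 ± 1.81 CPM in Flox normoxia (SD, n = 4 each), and 9.55 ± 1.79 CPM in KO hypoxia (SD, n = 7), against 27.0 ± 2.85 CPM in Flox hypoxia (SD, n = 4). All libraries are labelled male, yet 5 libraries (Flox normoxia 3 and 4, KO hypoxia 6 and 7 and Flox hypoxia 6) held less than 10 CPM of the Y-linked gene Ddx3y. KO hypoxia libraries 1 to 3 stood apart from libraries 4 to 7. Their 13 mitochondrially encoded genes summed to 395 to 649 CPM, against 29.2 to 58.2 CPM in KO hypoxia 4 to 7 and 27.9 to 51.9 CPM in Flox hypoxia. Astrocyte markers were abundant in every library: the 12 markers summed to 37650 to 65489 CPM, against 501 to 3046 CPM for 5 pan-neuronal markers (Snap25, Syt1, Rbfox3, Tubb3 and Stmn2, all members). The sums depend on how many genes and which genes each list holds, so they are given as levels of the lists and not as amounts of cells. No member and no marker of the astrocyte, oligodendrocyte, microglial, endothelial or mural lists was at 0 in any library.

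Per length, on the authors' RPKM scale (count per library total and gene length), the highest level in Flox normoxia was that of Nrgn, the postsynaptic calmodulin-binding protein neurogranin, at 177 ± 55.5. Snap25, the membrane-fusion protein of the presynaptic terminal, followed at 53.2 ± 16.9, then Syn1 at 39.2 ± 9.60, Thy1 at 36.6 ± 3.24 and Tubb3 at 30.6 ± 4.65 (SD, n = 4). The ranges of mean ± SD of Nrgn and Snap25 did not overlap, and those of each neighbouring pair from Snap25 to Tubb3 did. The lowest levels were those of the NMDA receptor subunit Grin2a at 0.982 ± 0.0817, the transcription factor Neurod1 at 0.664 ± 0.102 and the sodium channel Scn1a at 0.647 ± 0.141. In RefSeq, 19 of the 38 genes share bases with another annotated gene, among them Syn1 with Timp1 and Araf, Syn2 with Timp4, Grin1 with Grin1os and Lrrc26, Gad1 with Gad1os, Hpca with Tmem54 and Nefh with Ap1b1. No source at hand says if strand was used in counting, so reads of these pairs cannot be told apart with certainty.

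**Figure D1:**
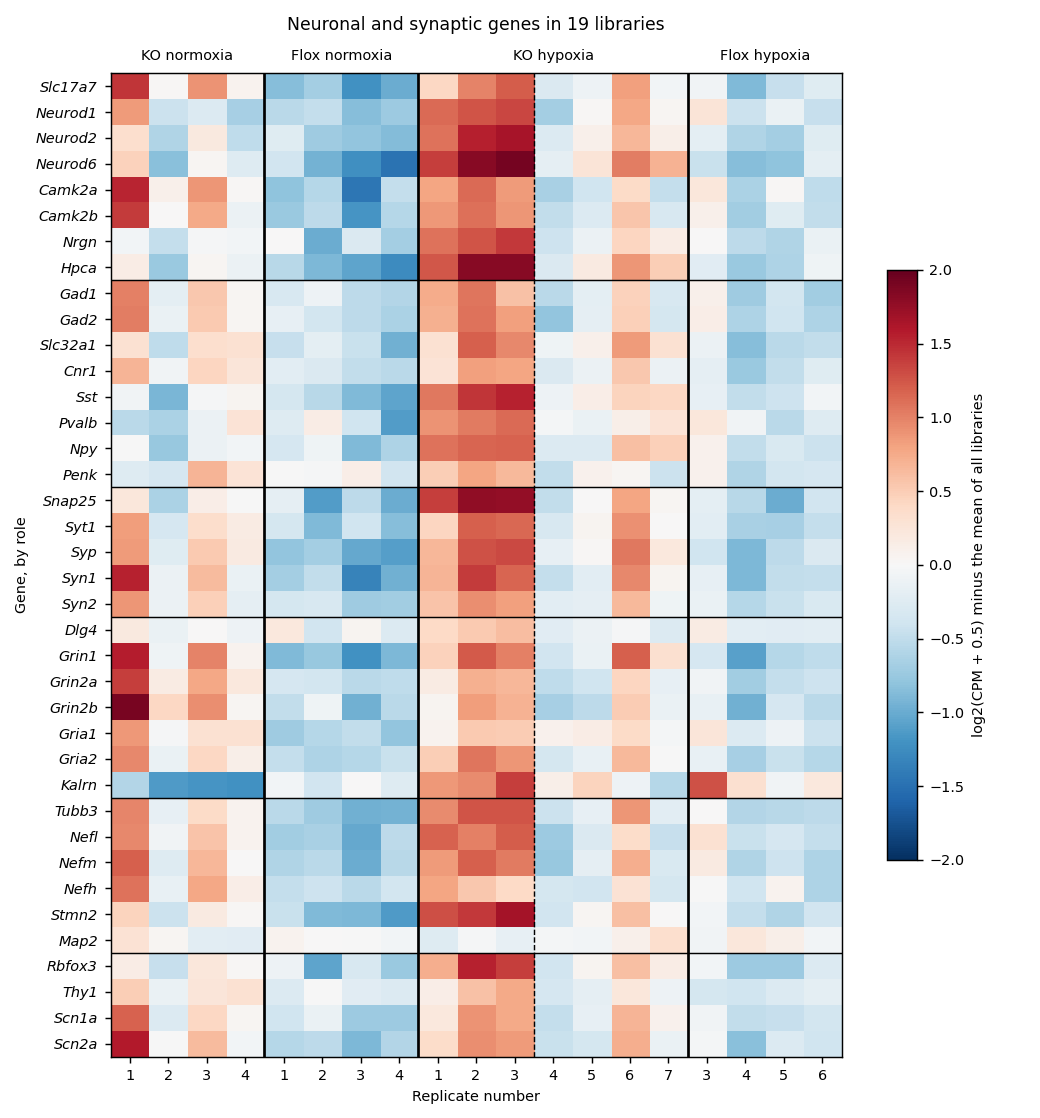
Level of each of the 38 genes (rows, grouped by role) in each of 19 libraries (columns, by replicate number), as log2(CPM + 0.5) minus the gene's mean over all libraries; the dashed line parts KO hypoxia libraries 1 to 3 from 4 to 7. KO normoxia libraries 1 and 3 and KO hypoxia libraries 1 to 3 and 6 are red for most genes, and Map2 is near its mean in every library.

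Neuronal RNA at normal oxygen was compared between KO and Flox in normoxia. These groups may also differ in Cre and in 4-hydroxytamoxifen, as the labels leave the treatment of controls open. In the quasi-likelihood test of edgeR with Benjamini-Hochberg adjustment, 15 of the 38 genes rose in KO and 0 fell, against 6.9% of 19854 genes that rose and 5.27% that fell. The estimate was positive for 36 of 38, with a median log2 fold change of 0.89 against -0.01 over all genes tested. In 20 of 38 genes every KO library lay above every Flox library, which held for 9.82% of all genes, and in 1 gene, Kalrn, every KO library lay below (9.84% of all genes). By role, 5 of 7 postsynaptic, 3 of 5 release, 3 of 8 excitatory, 2 of 6 cytoskeletal, 1 of 8 inhibitory and 1 of 4 nuclear, surface and channel genes rose.

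Of the postsynaptic genes, Gria1, a subunit of the AMPA glutamate receptor, had 172, 92.3, 116 and 116 CPM in KO normoxia libraries 1 to 4, against 56.99, 62.7, 66.5 and 54.2 CPM in Flox normoxia libraries 1 to 4. All KO libraries were higher than all Flox libraries, and the log2 fold change was 1.05 ± 0.18 (SE; adjusted p = 0.00139). Grin1, the obligate subunit of the NMDA glutamate receptor, had 184, 58.0, 123 and 65.04 CPM in KO, against 33.2, 36.1, 26.3 and 32.9 CPM in Flox. Its KO values differed among themselves by more than its Flox values did, and its log2 fold change was 1.74 ± 0.37 (adjusted p = 0.00678). Grin2a, an NMDA receptor subunit that sets channel kinetics, had 64.6, 27.4, 42.4 and 28.4 CPM in KO, against 19.2, 18.9, 16.6 and 17.01 CPM in Flox (log2 fold change 1.18 ± 0.28, adjusted p = 0.0131). KO library 1 was again the highest and the groups did not overlap. Grin2b, another NMDA receptor subunit, and Gria2, the AMPA receptor subunit that limits calcium entry, rose by 1.5 (adjusted p = 0.0166) and 0.94 (adjusted p = 0.0326) on the log2 scale.

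The other 2 postsynaptic genes did not pass. Dlg4, the scaffold protein PSD-95, had 313, 249.4, 274 and 254 CPM in KO, against 315, 208, 282 and 225 CPM in Flox (log2 fold change 0.08 ± 0.19, adjusted p = 0.817), so the groups overlapped over most of their range. Kalrn, an exchange factor that shapes dendritic spines, had 328, 225, 217 and 213 CPM in KO, against 472, 376, 494 and 411 CPM in Flox. All KO libraries were below all Flox libraries, with a log2 fold change of -0.84 ± 0.34 (adjusted p = 0.115). It was called lower without KO hypoxia 1 to 3 (-0.83, adjusted p = 0.0418), by limma-voom and with the compared groups alone. It was also called with the replicate number as a block (-0.85, adjusted p = 0.0133), although these numbers were not taken as pairs in normoxia. DESeq2 did not call it, nor did the fit without the libraries low in Y-linked RNA (adjusted p = 0.258). None of the 19 omissions of a library called it either (adjusted p = 0.075 to 0.236).

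Among the release genes, Syp, the vesicle membrane protein synaptophysin, had 185, 86.3, 147 and 116 CPM in KO normoxia, against 59.0, 63.4, 50.3 and 47.4 CPM in Flox normoxia. The groups did not overlap, and the log2 fold change was 1.28 ± 0.30 (adjusted p = 0.0121). Syn1, synapsin I, which tethers vesicles in the reserve pool, had 688, 218, 367 and 214 CPM in KO, against 147, 166, 93.4 and 121 CPM in Flox (log2 fold change 1.49 ± 0.40, adjusted p = 0.0236). Library 1 stood well above the other KO libraries, so the rise was uneven although no values overlapped. Syn2, a second synapsin, rose by 0.85 on the log2 scale (adjusted p = 0.043). Snap25 had 675, 371, 634 and 579 CPM in KO, against 508, 266, 405 and 290 CPM in Flox. Here the groups overlapped, and the log2 fold change of 0.62 ± 0.41 did not pass (adjusted p = 0.35). Syt1, the calcium sensor synaptotagmin 1, averaged 253 ± 84.2 CPM in KO and 134 ± 25.8 CPM in Flox (SD, n = 4 each; adjusted p = 0.0542).

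Among excitatory genes, Slc17a7, the vesicular glutamate transporter of cortical and hippocampal neurons, had 396, 149, 274 and 154 CPM in KO normoxia, against 81.7, 92.1, 63.5 and 73.3 CPM in Flox normoxia. All KO libraries were above all Flox libraries (log2 fold change 1.65 ± 0.35, adjusted p = 0.0062). Camk2a, a subunit of the kinase CaMKII that strengthens synapses, had 848, 315, 542 and 299 CPM in KO, against 167, 198, 107 and 211 CPM in Flox (log2 fold change 1.55 ± 0.41, adjusted p = 0.0203). Camk2b, the partner subunit, rose by 1.39 ± 0.37 (adjusted p = 0.0221). The transcription factors and calcium-binding proteins of the same group did not pass. Nrgn had 342, 256, 351 and 342 CPM in KO, against 358, 179, 291 and 221 CPM in Flox (adjusted p = 0.603). Its highest library was a Flox library, unlike those of Slc17a7 and Camk2a. Neurod1, Neurod2 and Neurod6, transcription factors of excitatory neuron differentiation, and Hpca, the hippocampal calcium sensor hippocalcin, had log2 fold changes of 0.77, 0.56, 0.91 and 0.79 (adjusted p = 0.269, 0.332, 0.147 and 0.168).

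In the inhibitory group Cnr1, the cannabinoid receptor found at high level on the terminals of some interneurons, had 40.3, 23.8, 33.8 and 29.5 CPM in KO normoxia, against 21.4, 20.2, 17.5 and 16.95 CPM in Flox normoxia. It rose with no overlap, by 0.74 ± 0.23 on the log2 scale (adjusted p = 0.0436). The GABA-synthesising enzymes Gad1 and Gad2 averaged 106 ± 40.3 and 40.3 ± 15.3 CPM in KO, against 61.0 ± 9.65 and 22.1 ± 3.23 CPM in Flox (SD, n = 4 each), and neither passed (adjusted p = 0.111 and 0.106). Slc32a1, the vesicular GABA transporter, had 18.1, 10.1, 18.4 and 18.0 CPM in KO, against 10.4, 12.7, 10.49 and 7.197 CPM in Flox (adjusted p = 0.118). KO library 2 lay within the Flox range and the other 3 KO libraries above it. The neuropeptide genes Sst, Npy and Penk and the calcium-buffer gene Pvalb of fast-spiking interneurons had log2 fold changes of 0.51, 0.28, 0.21 and 0.14 (adjusted p = 0.324, 0.639, 0.665 and 0.829).

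In the cytoskeletal group Tubb3, the neuron-specific beta-tubulin, had 197, 89.3, 131 and 105 CPM in KO normoxia, against 68.3, 61.2, 51.4 and 51.9 CPM in Flox normoxia (log2 fold change 1.16 ± 0.35, adjusted p = 0.0366). Nefh, the heavy neurofilament chain, had 29.5, 12.2, 23.5 and 14.9 CPM in KO, against 9.60, 10.03, 9.16 and 10.4 CPM in Flox (log2 fold change 1.03 ± 0.29, adjusted p = 0.0264). Both rose with no overlap between groups. The light and medium chains Nefl and Nefm had log2 fold changes of 1.16 and 1.19 and no overlap, without passing (adjusted p = 0.0558 and 0.0514), as did Stmn2, a growth-cone regulator of microtubules (0.92, adjusted p = 0.104). Map2, a dendritic microtubule protein, had 483, 403, 341 and 337 CPM in KO, against 411, 396, 390 and 378 CPM in Flox (log2 fold change -0.01 ± 0.12, adjusted p = 0.967). Its Flox values lay inside its KO range. Scn2a, a sodium channel of excitatory axons, had 103, 34.1, 53.2 and 32.7 CPM in KO, against 22.9, 23.8, 18.2 and 22.6 CPM in Flox, and rose by 1.35 ± 0.35 (adjusted p = 0.0204). Scn1a, the sodium channel of fast-spiking interneurons, Thy1, a neuronal surface protein, and Rbfox3, the nuclear splicing factor NeuN, had log2 fold changes of 0.97, 0.43 and 0.52 and did not pass (adjusted p = 0.0511, 0.144 and 0.343).

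The number of normoxia calls depended on single libraries, while the estimates stayed positive for most genes. KO library 1 was the highest of its group for 32 of 38 genes and KO library 2 the lowest for 29. Members called numbered 4, 20, 7 and 16 without KO normoxia 1, 2, 3 and 4 in turn, and 7, 10, 5 and 9 without Flox normoxia 1, 2, 3 and 4. In these 8 fits 35 to 37 of 38 estimates were positive, the median was 0.64 to 1.04 (0.64 without KO normoxia 1 and 0.82 without Flox normoxia 3), and 1122 to 3149 of all genes were called, against 2415 with every library. Gria1, Grin1, Slc17a7 and Syp were called under each of the 19 omissions of a library. Without the 5 libraries low in Y-linked RNA, which left 2 Flox normoxia libraries, 1 gene was called, Gria1 (log2 fold change 1.05, adjusted p = 0.0457; 0.807% of all genes rose), while 34 of 38 estimates were positive with a median of 0.70. In the same contrast with all libraries, mitochondrially encoded genes summed to 57.8 to 192 CPM in KO and 23.6 to 32.5 CPM in Flox. Of these genes 0 of 13 were called. Of the cell markers, 6 of 8 microglial, 4 of 7 endothelial and 4 of 6 mural markers rose. The 12 astrocyte markers summed to 53349 to 65489 CPM in KO and 55881 to 62012 CPM in Flox, and 2 of 12 rose and 0 fell. The part of these in the neuronal result was not tested.

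**Figure D2:**
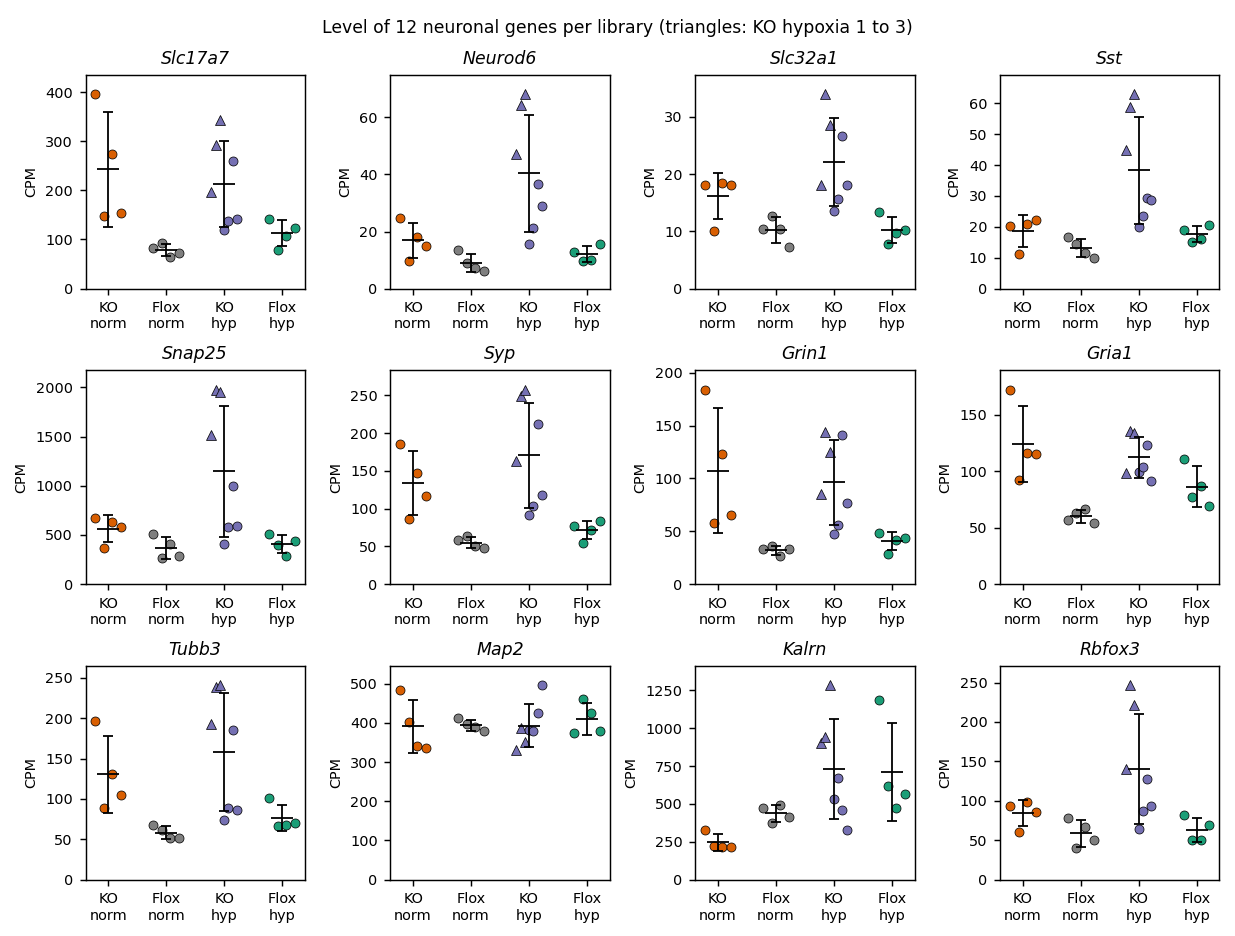
CPM of 12 of the genes in each library, by group, with mean and SD as black bars; triangles are KO hypoxia libraries 1 to 3, which enter the KO hypoxia mean and SD. The KO normoxia points of Slc17a7, Syp, Grin1, Gria1 and Tubb3 lie above all Flox normoxia points, and those of Kalrn lie below them.

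In hypoxia, 20 of 38 genes rose in KO against Flox and 0 fell, where 10.4% of all 19854 genes rose and 9.37% fell. The estimate was positive for 37 of 38, with a median log2 fold change of 0.82 against 0.01 over all genes. Every release gene was called (5 of 5), and 5 of 8 excitatory, 4 of 8 inhibitory, 2 of 7 postsynaptic, 2 of 6 cytoskeletal and 2 of 4 nuclear, surface and channel genes rose. The KO hypoxia libraries were not alike: libraries 1 to 3 lay above all Flox hypoxia libraries in 35 of 38 genes (22.5% of all genes did so), and above all of KO hypoxia 4 to 7 in 22 of 38 (14.8% of all genes). Without libraries 1 to 3, 3 genes were called, Neurod6, Slc32a1 and Syp (4.51% of 19504 genes rose), 34 of 38 estimates were positive and the median was 0.41. The same 3 of 38 genes were those in which every KO hypoxia library, of all 7 and of 4 to 7, lay above every Flox hypoxia library. This is near the share of all genes (5.37% for all 7 and 8.52% for 4 to 7), and it rests on the libraries that gave the calls.

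Neurod6 had 47.2, 64.3 and 68.2 CPM in KO hypoxia libraries 1 to 3 and 15.6, 21.3, 36.8 and 29.1 CPM in libraries 4 to 7, against 12.97, 9.57, 9.98 and 15.5 CPM in Flox hypoxia libraries 3 to 6. The lowest KO library lay just above the highest Flox library. The log2 fold change was 1.75 ± 0.38 with all libraries (adjusted p = 0.00448) and 1.09 ± 0.31 without KO hypoxia 1 to 3 (adjusted p = 0.0423). Slc32a1 had 18.0, 34.0 and 28.6 CPM in KO libraries 1 to 3 and 13.6, 15.7, 26.7 and 18.1 CPM in libraries 4 to 7, against 13.3, 7.80, 9.79 and 10.2 CPM in Flox. Its library 1 was no higher than library 7, so the split of the KO libraries was weaker here. It rose by 1.10 ± 0.25 (adjusted p = 0.00641), and by 0.84 ± 0.24 without KO hypoxia 1 to 3 (adjusted p = 0.0375). Syp had 162, 248.7 and 258 CPM in KO libraries 1 to 3 and 91.1, 104, 213 and 119 CPM in libraries 4 to 7, against 77.3, 54.7, 71.3 and 83.8 CPM in Flox. It rose by 1.25 ± 0.28 (adjusted p = 0.00545), and by 0.87 ± 0.26 without KO hypoxia 1 to 3 (adjusted p = 0.048).

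Of the 5 release genes, Snap25 was the one in which KO libraries 1 to 3 all lay above libraries 4 to 7. Snap25 had 1512, 1978 and 1955 CPM in KO libraries 1 to 3 and 410, 579, 998 and 595 CPM in libraries 4 to 7, against 505, 396, 290 and 443 CPM in Flox. Its ratio of mean CPM in KO libraries 1 to 3 over 4 to 7, 2.81, was the highest of the 38 genes, and its log2 fold change of 1.49 ± 0.39 (adjusted p = 0.0137) was 0.66 without KO hypoxia 1 to 3 (adjusted p = 0.159). Syt1 had 272, 466.01 and 449 CPM in KO libraries 1 to 3 and 162, 210, 380 and 203 CPM in libraries 4 to 7, against 176, 129, 128 and 146 CPM in Flox (log2 fold change 1.08 ± 0.28, adjusted p = 0.0128). Its library 1 lay below library 6. Syn1 and Syn2 rose by 1.15 and 0.78 on the log2 scale (adjusted p = 0.0356 and 0.0302). None of these 4 passed without KO hypoxia 1 to 3, where Syt1 had 0.72 (adjusted p = 0.105), Syn1 0.68 (adjusted p = 0.286) and Syn2 0.44 (adjusted p = 0.276).

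Of the other excitatory genes, Hpca had 310, 465 and 464 CPM in KO libraries 1 to 3 and 107, 148, 242 and 184 CPM in libraries 4 to 7, against 112, 78.3, 85.0 and 123 CPM in Flox. It rose by 1.46 ± 0.34 (adjusted p = 0.00761), and had 0.77 without KO hypoxia 1 to 3 (adjusted p = 0.0641). Neurod2 had 52.4, 72.2 and 76.9 CPM in KO libraries 1 to 3 and 19.98, 26.0, 38.8 and 26.4 CPM in libraries 4 to 7, against 21.1, 15.8, 14.9 and 20.5 CPM in Flox (log2 fold change 1.30 ± 0.34, adjusted p = 0.0128). Libraries 4 to 7 overlapped Flox only through library 4. Nrgn had 760, 854 and 947 CPM in KO libraries 1 to 3 and 266, 329, 477 and 395 CPM in libraries 4 to 7, against 357, 248, 235 and 324 CPM in Flox (log2 fold change 0.98 ± 0.31, adjusted p = 0.032). Slc17a7 rose by 0.92 ± 0.31 (adjusted p = 0.0436). Camk2a, with 507, 644 and 529 CPM in KO libraries 1 to 3 and 187, 221, 383 and 210 CPM in libraries 4 to 7, against 341, 190, 299 and 206 CPM in Flox, did not pass (log2 fold change 0.57 ± 0.36, adjusted p = 0.277). Its libraries 4 to 7 spanned the Flox values, and without KO hypoxia 1 to 3 its estimate was -0.05. Camk2b and Neurod1 did not pass either (log2 fold changes 0.76 and 0.99, adjusted p = 0.11 and 0.0861).

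Among inhibitory genes, Sst, the peptide somatostatin whose promoter is shown above, had 45.002, 58.6 and 63.0 CPM in KO libraries 1 to 3 and 19.8, 23.5, 29.2 and 28.6 CPM in libraries 4 to 7, against 19.1, 15.0, 15.9 and 20.6 CPM in Flox. It rose by 1.12 ± 0.29 (adjusted p = 0.0145), and had 0.51 without KO hypoxia 1 to 3 (adjusted p = 0.135). Cnr1 rose by 0.75 ± 0.21 (adjusted p = 0.0203) and Npy, the peptide neuropeptide Y, by 1.06 ± 0.31 (adjusted p = 0.0231). Npy averaged 8.85 ± 0.332 CPM in KO libraries 1 to 3 (n = 3) and 4.33 ± 1.54 CPM in libraries 4 to 7 (n = 4), against 3.01 ± 0.672 CPM in Flox (SD, n = 4). Pvalb had 10.55, 11.7 and 12.4 CPM in KO libraries 1 to 3 and 5.29, 4.91, 5.90 and 6.68 CPM in libraries 4 to 7, against 6.46, 5.12, 3.56 and 4.43 CPM in Flox (log2 fold change 0.75 ± 0.30, adjusted p = 0.0909). Libraries 4 to 7 of Pvalb lay close to Flox. Gad1, Gad2 and Penk, the last encoding enkephalin peptides, did not pass (log2 fold changes 0.75, 0.74 and 0.54, adjusted p = 0.0763, 0.101 and 0.138).

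Of the postsynaptic genes, Grin1 had 85.1, 144 and 125 CPM in KO libraries 1 to 3 and 47.1, 56.2, 142 and 77.0 CPM in libraries 4 to 7, against 48.8, 28.8, 41.3 and 43.4 CPM in Flox (log2 fold change 1.25 ± 0.34, adjusted p = 0.0158). Library 6 was level with libraries 2 and 3, so for Grin1 the KO libraries did not divide by number. Gria2 rose by 0.91 ± 0.25 (adjusted p = 0.0179). Gria1, the gene with the lowest adjusted p of the 38 in normoxia, had 98.3, 135 and 134 CPM in KO libraries 1 to 3 and 99.3, 104, 123 and 91.6 CPM in libraries 4 to 7, against 111, 77.6, 87.4 and 69.7 CPM in Flox. KO libraries 1 to 3 and 4 to 7 were close together and both overlapped Flox (log2 fold change 0.38 ± 0.16, adjusted p = 0.097). Grin2a and Grin2b had log2 fold changes of 0.61 and 0.69 (adjusted p = 0.0973 and 0.154), and Dlg4 had 0.28 (adjusted p = 0.256). Kalrn had 899, 944 and 1284 CPM in KO libraries 1 to 3 and 535, 670, 461 and 330 CPM in libraries 4 to 7, against 1187, 616, 471 and 567.7 CPM in Flox (log2 fold change 0.04 ± 0.30, adjusted p = 0.936). Flox library 3 stood apart from the other Flox libraries at the height of the KO libraries 1 to 3.

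In the cytoskeletal group, Stmn2 had 106, 116 and 137 CPM in KO libraries 1 to 3 and 32.8, 44.4, 65.9 and 43.4 CPM in libraries 4 to 7, against 41.5, 30.8, 28.4 and 32.9 CPM in Flox (log2 fold change 1.22 ± 0.33, adjusted p = 0.0174). Tubb3 had 193, 239 and 241 CPM in KO libraries 1 to 3 and 73.7, 88.9, 185 and 86.4 CPM in libraries 4 to 7, against 101, 66.2, 68.2 and 69.6 CPM in Flox (log2 fold change 1.05 ± 0.32, adjusted p = 0.0278). In both genes libraries 4, 5 and 7 lay near the Flox values. Nefl averaged 120 ± 8.94 CPM in KO libraries 1 to 3 (n = 3) and 46.5 ± 16.4 CPM in libraries 4 to 7 (n = 4), against 47.1 ± 13.3 CPM in Flox (SD, n = 4; adjusted p = 0.143). Nefm and Nefh did not pass (log2 fold changes 0.86 and 0.43, adjusted p = 0.0879 and 0.247). Map2 had 331, 387 and 350 CPM in KO libraries 1 to 3 and 382, 378, 424 and 496 CPM in libraries 4 to 7, against 375, 461, 426 and 380 CPM in Flox, and was the one gene of the 38 with a negative estimate (-0.06 ± 0.11, adjusted p = 0.714). Its libraries 1 to 3 averaged 0.848 times libraries 4 to 7, the lowest ratio of the 38. Rbfox3 had 140, 247 and 221 CPM in KO libraries 1 to 3 and 64.7, 87.1, 128 and 93.1 CPM in libraries 4 to 7, against 81.5, 50.7, 50.7 and 69.5 CPM in Flox, and rose by 1.15 ± 0.32 (adjusted p = 0.0179). Thy1 rose by 0.51 ± 0.17 (adjusted p = 0.0441), while Scn1a and Scn2a had 0.73 and 0.74 (adjusted p = 0.0764 and 0.105). Rbfox3 had 0.56 (adjusted p = 0.17) and Thy1 0.22 (adjusted p = 0.309) without KO hypoxia 1 to 3.

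**Figure D3:**
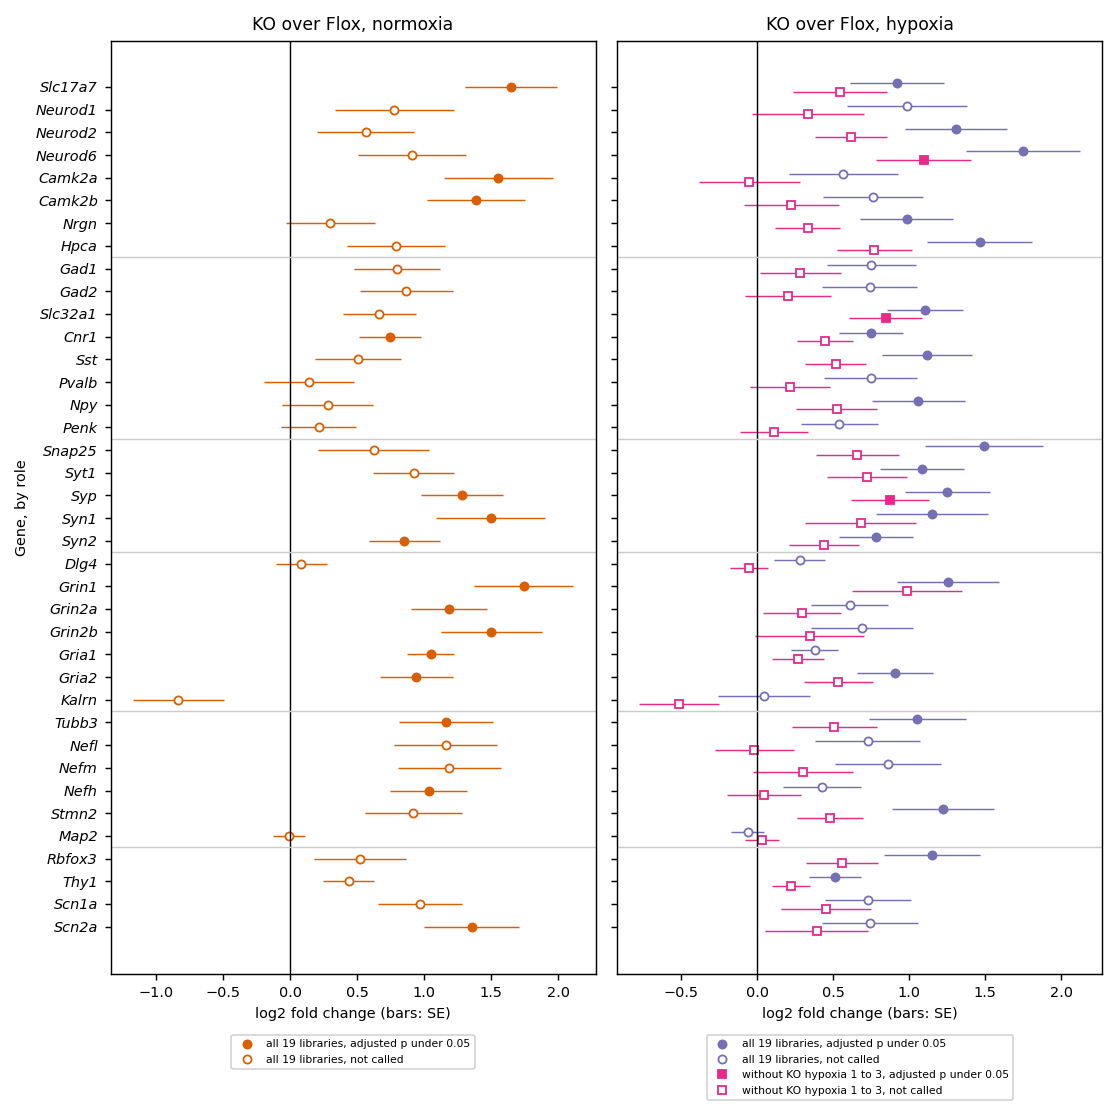
Log2 fold change of KO over Flox with its SE for the 38 genes, in normoxia (left) and hypoxia (right); filled symbols passed an adjusted p of 0.05, and squares show hypoxia without KO hypoxia libraries 1 to 3. In hypoxia 20 circles are filled and 3 squares are filled, those of Neurod6, Slc32a1 and Syp.

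Same-numbered KO and Flox libraries in hypoxia were taken as pairs from their correlations, and the pairing itself was not tested. With the number as a block (libraries 3 to 6 of each genotype) 16 genes rose, where 7.76% of 18798 genes rose. Calls of 6 genes were lost under the block, those of Nrgn (log2 fold change 0.64, adjusted p = 0.0703), Sst (0.80, adjusted p = 0.053), Npy (0.69, adjusted p = 0.0899), Stmn2 (0.87, adjusted p = 0.0521), Tubb3 (0.81, adjusted p = 0.0501) and Thy1 (0.43, adjusted p = 0.147), and those of Gria1 (0.43, adjusted p = 0.0384) and Penk (0.40, adjusted p = 0.0481) were gained. Members called numbered 15, 14, 14, 26, 20, 16 and 21 without KO hypoxia 1 to 7 in turn. Of all genes, 3272, 2818, 2759, 4744, 4443, 3070 and 4482 were called in these fits, against 3917 with every library. Without Flox hypoxia 3, 4, 5 and 6 the members numbered 20, 7, 7 and 12, where 3211, 2217, 2143 and 2618 of all genes were called. The medians were 0.77 and 0.81 in the 2 fits that called 7 members. Hpca, Neurod2, Neurod6, Slc32a1, Syp and Syt1 were called under each of the 19 omissions of a library. Without the 5 libraries low in Y-linked RNA, 3.45% of all genes rose and 5 of the 38 were called, Neurod2, Neurod6, Hpca, Sst and Syp, with log2 fold changes of 1.52, 2.0, 1.70, 1.33 and 1.35 (adjusted p = 0.046, 0.0238, 0.0336, 0.0428 and 0.0347). In that fit 37 of 38 estimates were positive and the median was 0.85, close to the 0.82 of all libraries. The fit kept KO hypoxia 1 to 5, and so the libraries 1 to 3 that stood apart, against Flox hypoxia 3 to 5. Without KO hypoxia 1 to 3 the median was 0.41.

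Other markers moved with the neuronal genes in KO hypoxia libraries 1 to 3. The 38 genes summed to 7921 to 10314 CPM in KO hypoxia 1 to 3 and 3737 to 6693 CPM in KO hypoxia 4 to 7, against 3531 to 5163 CPM in Flox hypoxia. The 9 oligodendrocyte lineage markers summed to 1171 to 1526 CPM in KO hypoxia 1 to 3 and 827 to 1099 CPM in KO hypoxia 4 to 7, against 829.1 to 927 CPM in Flox hypoxia, with 3 of 9 called higher in KO. Astrocyte markers were lower, at 37650 to 41038 CPM in KO hypoxia 1 to 3 and 45436 to 56460 CPM in KO hypoxia 4 to 7, against 54643 to 62328 CPM in Flox hypoxia, with 6 of 12 falling and 2 rising in KO. Mitochondrially encoded RNA, given above, was higher in libraries 1 to 3 and, in library 6, was at 29.2 CPM, although library 6 was the highest of libraries 4 to 7 for 34 of 38 genes. Microglial markers did not split the KO libraries, at 67.5 to 73.9 CPM in KO hypoxia 1 to 3 and 62.2 to 82.1 CPM in KO hypoxia 4 to 7, against 33.3 to 48.5 CPM in Flox hypoxia. The part of these in the neuronal result was not tested.

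**Figure D4:**
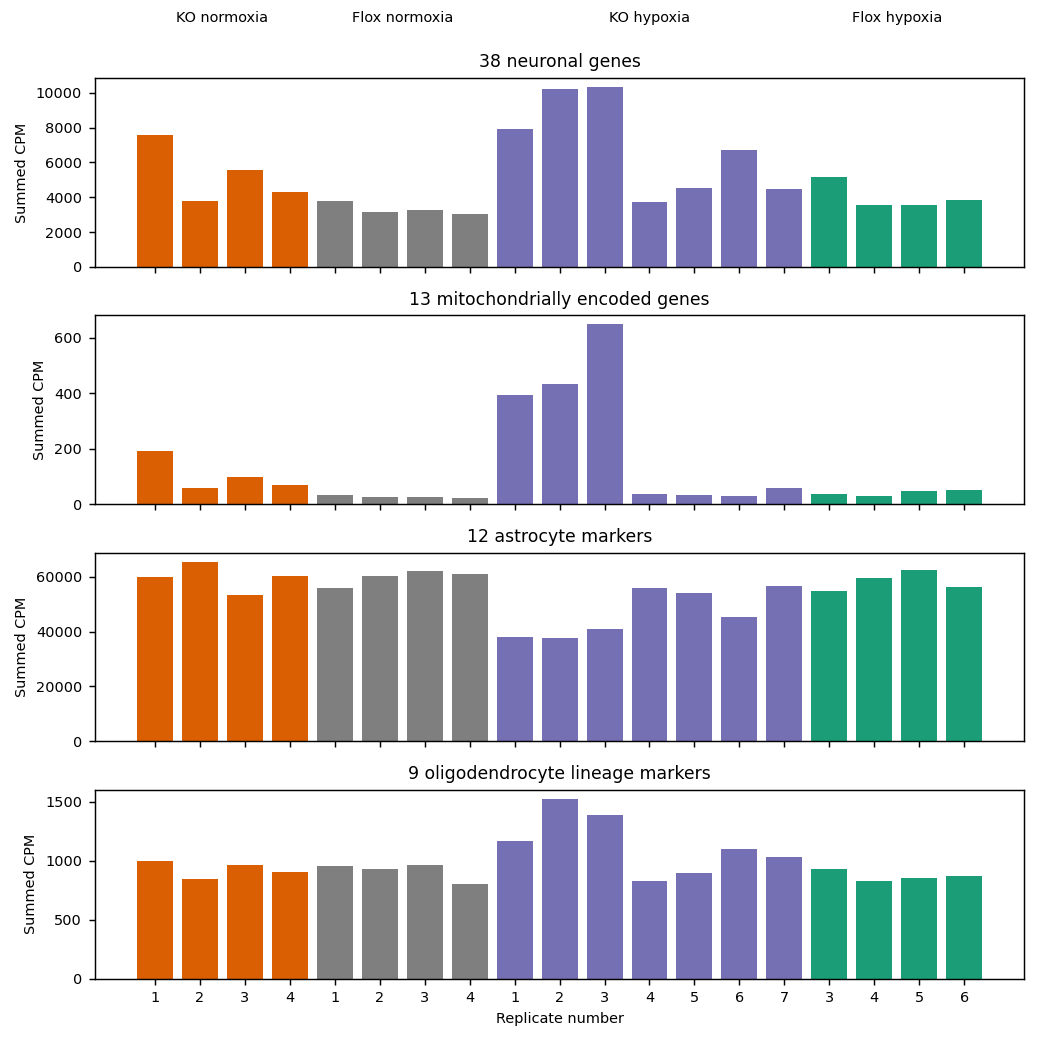
Summed CPM of the 38 neuronal genes, of mitochondrially encoded genes, of astrocyte markers and of oligodendrocyte lineage markers in each library (bars, by replicate number; linear axes from 0). KO hypoxia libraries 1 to 3 have the 3 highest neuronal and mitochondrial sums and the 3 lowest astrocyte sums of the 19 libraries.

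In Flox mice 0 of 38 neuronal genes were called in hypoxia against normoxia, where 0.00504% of all genes rose and 0.0806% fell. DESeq2 and limma-voom also called 0 of 38. At an unadjusted p under 0.05 there was 1 of 38, against 1788 of 19854 genes. The estimate was positive for 33 of 38, with a median of 0.22 against -0.00 over all genes. The highest estimate was that of Kalrn (0.70 ± 0.34, adjusted p = 0.572), followed by Camk2a (0.60 ± 0.40, adjusted p = 0.716), and the lowest that of Penk (-0.24 ± 0.28, adjusted p = 0.878). Flox hypoxia library 3 was the highest of its group for 31 of 38 genes.

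In KO mice 5 of 38 genes rose in hypoxia against normoxia and 0 fell, where 4.76% of all genes rose and 7.77% fell. They were Kalrn (1.58 ± 0.32, adjusted p = 0.0065), Neurod6 (1.26 ± 0.37, adjusted p = 0.0324), Hpca (1.20 ± 0.34, adjusted p = 0.0285), Sst (1.04 ± 0.29, adjusted p = 0.0285) and Npy (0.99 ± 0.31, adjusted p = 0.042). In Kalrn all 7 KO hypoxia libraries, at 330 to 1284 CPM, lay above all 4 KO normoxia libraries, at 213 to 328 CPM. The estimate was positive for 24 of 38, with a median of 0.09 against 0.02 over all genes, and the receptor subunits Grin2b (-0.79 ± 0.32, adjusted p = 0.111) and Grin2a (-0.53 ± 0.24, adjusted p = 0.165) had the lowest. Without KO hypoxia 1 to 3, Kalrn was the one gene called (1.01, adjusted p = 0.0352; 3.08% of all genes rose), and Neurod6, Hpca, Sst and Npy had 0.59, 0.50, 0.43 and 0.44 (adjusted p = 0.252, 0.22, 0.205 and 0.319). The overall direction turned without those 3 libraries, with 14 of 38 estimates positive and a median of -0.27. The median was also below 0 without KO normoxia 2 (-0.04), KO normoxia 4 (-0.02) or KO hypoxia 2 (-0.02). Members called numbered 3, 1, 2 and 2 without KO normoxia 1, 2, 3 and 4 in turn, where 500, 537, 691 and 759 of 20126 to 20149 genes rose. Without KO hypoxia 1 to 7 in turn they numbered 2, 1, 1, 9, 7, 4 and 6. In these fits 690, 744, 704, 1052, 967, 814 and 963 of 19738 to 19803 genes rose. Kalrn was called under each of the 19 omissions of a library. In the same contrast 6 of 12 astrocyte, 4 of 7 endothelial and 1 of 6 mural markers fell and 0 of each rose. Endothelial markers summed to 19.5 to 32.7 CPM in KO hypoxia and 30.9 to 112 CPM in KO normoxia. Astrocyte markers summed to 37650 to 41038 CPM in KO hypoxia 1 to 3 and 45436 to 56460 CPM in KO hypoxia 4 to 7. In KO normoxia they summed to 53349 to 65489 CPM, above all of KO hypoxia 1 to 3 and above the lowest of 4 to 7. The part of these in the neuronal result was not tested.

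Whether the difference of KO from Flox changed between oxygen conditions was tested as an interaction. It was called for 0 of 38 genes, where 0.0101% of all genes were called, and DESeq2 and limma-voom called 0 of 38. At an unadjusted p under 0.05 there was 1 of 38, against 2292 of 19854 genes. The lowest adjusted p of the interaction among the 38 was 0.331, for Gria1, whose log2 difference of hypoxia minus normoxia effects was -0.67 ± 0.23. Estimates ran to -0.99 for Camk2a and 0.88 for Kalrn. In both oxygen conditions 8 genes were called, Cnr1, Gria2, Grin1, Slc17a7, Syn1, Syn2, Syp and Tubb3, with 7 called in normoxia and not in hypoxia, 12 in hypoxia and not in normoxia and 11 in neither, and by the interaction no difference between conditions passed for any of them.

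Estimates differed among the genes. Across the 38 genes, which share libraries, the log2 fold changes of KO over Flox in normoxia and in hypoxia, which share no library, had a Spearman rho of 0.118 and a Pearson r of 0.333, given as a description. Transcript length, with a median of 5.8 kb, had a rho of 0.285 with the log2 fold change in normoxia and -0.413 with that in hypoxia. The log2 ratio of KO hypoxia libraries 1 to 3 over 4 to 7 had a rho of -0.446 with length: its median was 1.05 in the 19 shorter genes and 0.71 in the 19 longer ones. In hypoxia without KO hypoxia 1 to 3 the rho was -0.234. The ratio of Snap25 to Syn1 CPM, 2 genes of the same terminals, was 0.981 to 2.70 in KO normoxia, against 1.60 to 4.33 in Flox normoxia. It was 3.18 to 4.00 in KO hypoxia 1 to 3 and 2.18 to 2.84 in KO hypoxia 4 to 7, against 1.73 to 3.15 in Flox hypoxia. Snap25 had the highest ratio of KO hypoxia 1 to 3 over 4 to 7 of the 38 genes, so a pair that holds it is not a neutral choice. The ratio of Nrgn to Camk2a, 2 postsynaptic genes of excitatory neurons, did not part KO hypoxia 1 to 3 (1.33 to 1.79) from 4 to 7 (1.25 to 1.88). In Flox hypoxia it was 0.786 to 1.57. It was 0.404 to 1.14 in KO normoxia, below every KO hypoxia library, and 0.905 to 2.71 in Flox normoxia.

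**Figure D5:**
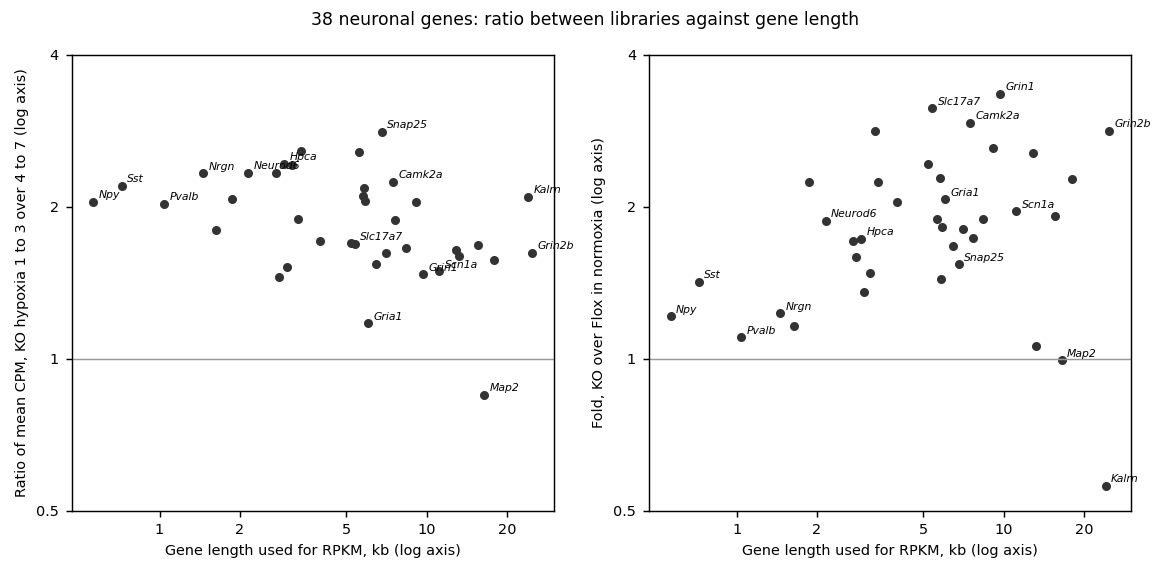
Ratio of mean CPM in KO hypoxia libraries 1 to 3 over 4 to 7 (left) and fold of KO over Flox in normoxia (right) against gene length, one point per gene for all 38, on log axes. Short genes such as Sst, Npy, Nrgn and Pvalb lie among the higher points on the left and the lower points on the right, with a Spearman rho over all 38 of -0.446 and 0.285.

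The same comparisons were made in 98 other neuronal genes of 8 lists, of which 96 were tested. In normoxia 38 rose in KO and 4 fell, with a median of 0.68, where 6.9% of all genes rose and 5.27% fell. In hypoxia 40 rose and 3 fell, with a median of 0.61, where 10.4% of all genes rose and 9.37% fell. Here too KO hypoxia 1 to 3 were high, as these genes summed to 12173 to 16003 CPM in KO hypoxia 1 to 3 and 7653 to 12466 CPM in KO hypoxia 4 to 7, against 7222 to 9270.1 CPM in Flox hypoxia. Of the other cytoskeletal genes 8 of 12 rose in each oxygen condition, among them Uchl1, a deubiquitinase abundant in neurons, at 1.17 in normoxia and 1.44 in hypoxia. Of the other release genes 8 of 18 rose in normoxia and 11 of 18 in hypoxia. Bsn and Pclo, giant scaffolds of the presynaptic active zone, rose by 1.83 and 1.62 in normoxia (adjusted p = 0.0108 and 0.0121) and in KO hypoxia against KO normoxia they fell by 1.65 and 1.63 on the log2 scale (adjusted p = 0.00844 and 0.00586). Of the other postsynaptic genes 11 of 18 rose in normoxia and 7 of 18 in hypoxia. Of the other channels and pumps 7 of 10 rose in normoxia and 4 of 10 in hypoxia. Of the 6 cerebellar genes tested, 0 rose in either condition and 1 fell in hypoxia.

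Lists of single neuron classes held both rises and falls. Of all genes, 6.9% rose and 5.27% fell in normoxia, and 10.4% rose and 9.37% fell in hypoxia. With so few genes per list, the falls are not read as a trait of a neuron class. Of the other projection neuron genes 2 of 12 rose and 2 fell in normoxia, and 4 rose and 1 fell in hypoxia. Of the other interneuron genes 1 of 12 rose and 1 fell in normoxia, and 3 rose and 0 fell in hypoxia. Of the striatal genes 1 of 8 rose and 1 fell in normoxia, and 3 rose and 1 fell in hypoxia. Pdyn, the dynorphin precursor of striatal neurons, rose by 1.89 in normoxia (adjusted p = 1.93e-05), whereas Ppp1r1b, the striatal signalling protein DARPP-32, fell by 0.97 on the log2 scale (adjusted p = 0.000242). Prox1, a transcription factor of dentate granule cells, fell by 0.64 in normoxia and 0.47 in hypoxia on the log2 scale (adjusted p = 0.00647 and 0.0111). Tbr1, a transcription factor of deep cortical neurons, rose by 1.37 in normoxia and 1.34 in hypoxia (adjusted p = 0.0384 and 0.0208). Calb1, a calcium buffer of several neuron classes, rose by 1.64 in hypoxia (adjusted p = 0.0132). In KO hypoxia against KO normoxia 5 of the 96 rose and 8 fell, where 4.76% and 7.77% of all genes did, and in Flox hypoxia against Flox normoxia 0 were called.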

How the data were processed

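RNA from mouse brain was sequenced with a stranded mRNA kit, per the labels' protocols, and the submitters' processing notes name HISAT2, edgeR and the build GRCm39. The authors deposited counts per gene and RPKM for 19 of 21 libraries. RPKM equalled count per total and length within a relative difference of 1.1e-13. Of 55416 gene IDs, 52083 matched a symbol. Depth was 45399320 to 65261791 counts per library. Among counts of 2 to 21, 65.9% were even, so counts need not be independent fragments.

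Counts were fitted in edgeR 4.0.16 (R 4.3.3; filterByExpr, TMM, robust quasi-likelihood) in 1 model of 19 libraries and 4 groups, with Benjamini-Hochberg adjustment over 19854 genes and calls at an adjusted p under 0.05. CPM is on the TMM scale. Alternatives were RLE scaling, library sizes without mitochondrially encoded genes, no filter, a stricter filter (1 CPM in 4 libraries), DESeq2 1.42.0, limma-voom (limma 3.58.1), a replicate block, the compared groups alone, and leaving out libraries. Replicate numbers were taken as pairs where every pair's correlation of deviations from group means exceeded 0.1, which held for KO and Flox in hypoxia (0.116 to 0.268 in 4 pairs). The numbers stand in the titles and the labels name no shared litter or day, so this pairing rests on those correlations. Libraries of different numbers were not correlated, so the values cannot show that the pairs are real. The closest replicates, KO hypoxia 4 and 5, had a median chi-square per gene of 1.88, where independent counts would give 0.455. As counts need not be independent fragments, the excess over sampling noise is not known from these values. Every member is named. Those given by library have one of the 3 lowest or 2 highest adjusted p of their role group and comparison, except Slc32a1 in normoxia and Nrgn and Pvalb in hypoxia, which were chosen after their values were seen. From each other list, up to 3 called genes per comparison, lowest adjusted p first, could be named. Members and lists were chosen with earlier results of these data known.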

Additional observations from a re-analysis of the deposited data

Results flagged for a closer look

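Among 152 sets of one gene in one group, 8 held a library far from the others of its group by Dixon's criterion, which chance meets in about 1 of 20 sets; groups of 4 to 7 libraries were examined. In KO normoxia, Neurod1 had 6.06 CPM in library 1 against 1.82 to 2.54 CPM in the others, and Kalrn had 328 CPM in library 1 against 213 to 225 CPM. In KO normoxia library 2, Nrgn had 256 CPM against 342 to 351 CPM in the others, and Slc32a1 had 10.1 CPM against 18.0 to 18.4 CPM. In Flox normoxia library 3, Nefm had 30.5 CPM against 40.3 to 41.8 CPM in the others. In Flox hypoxia library 3, Dlg4 had 306 CPM against 233 to 236 CPM, Tubb3 had 101 CPM against 66.2 to 69.6 CPM, and Nefl had 66.8 CPM against 38.8 to 42.9 CPM. That library was the highest of its group for 31 of the 38 genes.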

How the results depend on the processing

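Among the 38 members, no estimate of a called gene changed sign under any of the alternatives run. The signs of other genes were not compared. For KO against Flox in normoxia, 256 genes and 1 member were called without the libraries low in Y-linked RNA. Without a filter, 6 members and 1640 of 32305 genes were called. Without KO hypoxia 1 to 3, the calls were 24 members (23 higher and Kalrn lower) and 3481 of 19504 genes. Leaving out single libraries gave 1122 to 3149 genes and 4 to 20 members. In hypoxia, 1696 genes and 3 members were called without KO hypoxia 1 to 3, and 1467 genes and 5 members without the libraries low in Y-linked RNA; single omissions gave 2143 to 4744 genes and 7 to 26 members. For Flox hypoxia against normoxia, 140 genes were called by DESeq2, 400 by limma-voom, 35 with the compared groups alone, 44 with the replicate block, 37 without KO hypoxia 1 to 3 and 3 without the libraries low in Y-linked RNA; single omissions gave 3 to 39 genes and 0 members. For KO hypoxia against normoxia, 1196 genes were called by limma-voom, 981 with the compared groups alone, 1 with the replicate block, 1394 without KO hypoxia 1 to 3 and 1058 without the libraries low in Y-linked RNA. Members called in it were 1 without a filter (1791 of 32305 genes called) and 9 by DESeq2 (3313 of 19854 genes). Limma-voom and the compared groups alone called 1 member each. The block (2 groups of replicates 1 to 4) called 0. The fits without KO hypoxia 1 to 3 and without the libraries low in Y-linked RNA called 1 each. Single omissions gave 1480 to 2715 genes and 1 to 9 members. For the interaction, 108 genes were called by DESeq2 and 6 without the libraries low in Y-linked RNA, and single omissions gave 2 to 23 genes and 0 members. With the replicate block, 18 members were called in normoxia (17 higher and Kalrn lower), where 1700 of 18640 genes were called. In hypoxia the block called 16 members, where 2612 of 18798 genes were called. Outside KO and Flox in hypoxia the same-numbered libraries were not taken as pairs, with correlations of -0.035 to 0.1 in normoxia, 0.018 to 0.03 in Flox and -0.255 to 0.16 in KO. The causes of these differences were not tested. The depth allowed every member to be counted in every library; the spread between libraries and the group sizes limit the precision.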
